A study of Mus musculus with 6 samples.

Results

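Ceramide synthases and the enzymes that stand beside them in sphingolipid metabolism were followed in mouse liver after ischemia and reperfusion (I/R). The 10 genes, of 15454 genes in the count table, were taken by name: Sptlc1, Sptlc2, Cers2, Cers4, Cers5, Cers6, Degs1, Smpd1, Asah1 and Sphk1. All mice were male C57BL/6 animals aged 8 to 10 weeks in which 75% of the liver had been made ischemic while warm, and 3 of them had received vehicle (I/R) and 3 ginsenoside Rk2 (I/R+Rk2), a saponin from ginseng, first 2 days ahead of the operation and again as blood flow returned. One RNA library was made per liver, so the replicates are separate livers, and livers from sham operations were not analysed here. The only comparison is therefore I/R+Rk2 against I/R, which shows how the livers of Rk2-treated mice differed from those of vehicle-treated mice after the same operation. The authors reported less liver damage with Rk2, so treatment and extent of damage cannot be told apart here.

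Sphingolipids are built from a sphingoid base that serine palmitoyltransferase makes from serine and palmitoyl-CoA. Ceramide synthases attach a fatty acid to that base, each with its own preference for chain length, and the desaturase Degs1 then turns dihydroceramide into ceramide. Ceramide is passed on to sphingomyelin or glycosphingolipids, is released again from sphingomyelin by sphingomyelinases such as Smpd1, and is split by ceramidases such as Asah1 into sphingosine, which sphingosine kinases such as Sphk1 turn into sphingosine 1-phosphate, a lipid signal. Ceramide is best known in the injured liver for its part in cell death, insulin resistance and fat storage, and sphingosine 1-phosphate for guiding blood vessels and leukocytes.

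Total counts ran from 16809613 to 35618074 per library, and all 10 genes passed the filter for low counts. Normalised counts are given as CPM, counts per 1000000 of the scaled library, and are compared between livers for 1 gene, and levels are compared between genes as FPKM (fragments per kilobase of transcript and 1000000 mapped fragments), which is per length. The labelled tissue was checked against hepatocyte markers, and Alb, the albumin gene, lay between 44262 and 52469 CPM in the I/R livers and between 68876 and 88052 CPM in the I/R+Rk2 livers. Since the tissue is bulk liver, fewer cells of a type and less RNA per cell cannot be told apart.

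The largest difference among the 10 genes was in Cers6, whose normalised count was 9.76-fold lower in I/R+Rk2 than in I/R. Sptlc2 was 2.95-fold lower, Cers5 2.66-fold lower, Cers4 1.96-fold lower and Sphk1 1.66-fold lower. Cers2 was 1.31-fold higher, Asah1 higher by a log2 fold change of 0.38 and Smpd1 1.21-fold higher, whereas Sptlc1 and Degs1 differed by a log2 fold change of -0.015 and 0.040. A gene passed with an adjusted p below 0.05 (edgeR quasi-likelihood test over 12411 genes), and 6 of the 10 genes did so, 2 higher and 4 lower, where 43.9% of all genes tested passed, 20.3% higher and 23.7% lower. With a fold change above 2 as well, the count was 3 of 10, all lower, against 14.6% of all genes, and the livers of the groups did not overlap for 8 of 10, against 57.4% of all genes, 3 of them higher and 5 lower (27.1% and 30.3% of all genes). The genes were selected on their names and on measured values of this same contrast, the counts and FPKM of I/R+Rk2 against I/R, so the counts describe them and no test is given for any of them. The count of 6 came to 3 when I/R replicate 1 or I/R+Rk2 replicate 2 was left out, where 31.9% and 31.1% of all genes passed.

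**Figure D1:**
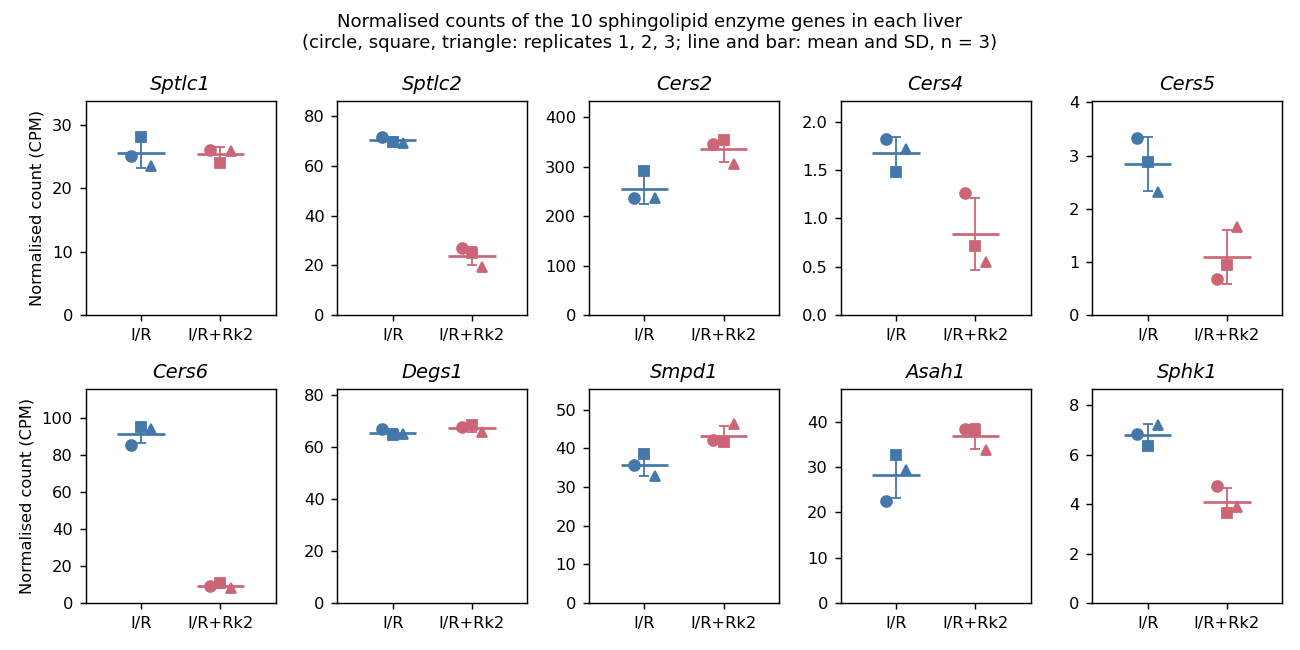
Normalised counts (CPM, each vertical axis from 0) of the 10 sphingolipid enzyme genes in the 6 livers, with I/R in blue and I/R+Rk2 in red, symbols for replicates 1 to 3, a line at the mean and a bar for the SD (n = 3). All 3 I/R+Rk2 livers sit below all 3 I/R livers for Sptlc2, Cers4, Cers5, Cers6 and Sphk1 and above them for Cers2, Smpd1 and Asah1, and the groups overlap for Sptlc1 and Degs1.

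Promoters are shown for the genes at the ends of that range, Cers6 and Sptlc2 as the genes with the lowest and the next lowest value and Cers2 as the highest, and for Degs1, which differed little and shares a motif with Cers6 and Cers2. Each line gives the 250 bases before a transcription start in RefSeq (GRCm38.p6), 5′ to 3′ on the gene's own strand, with motif matches in capitals. The windows are chr2:68861191-68861440 (plus strand) for Cers6, chr12:87388356-87388605 (minus strand) for Sptlc2, chr3:95314940-95315189 (plus strand) for Cers2 and chr1:182282196-182282445 (minus strand) for Degs1.
Cers6: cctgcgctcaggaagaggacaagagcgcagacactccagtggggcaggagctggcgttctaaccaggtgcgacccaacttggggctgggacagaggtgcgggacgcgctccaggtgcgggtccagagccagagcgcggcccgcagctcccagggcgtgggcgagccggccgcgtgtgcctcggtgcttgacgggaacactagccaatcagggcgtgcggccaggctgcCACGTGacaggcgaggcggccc
Sptlc2: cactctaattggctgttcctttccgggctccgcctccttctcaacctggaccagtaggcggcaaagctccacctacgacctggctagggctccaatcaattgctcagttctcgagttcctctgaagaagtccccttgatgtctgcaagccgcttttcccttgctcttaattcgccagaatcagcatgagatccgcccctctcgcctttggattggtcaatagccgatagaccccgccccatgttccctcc
Cers2: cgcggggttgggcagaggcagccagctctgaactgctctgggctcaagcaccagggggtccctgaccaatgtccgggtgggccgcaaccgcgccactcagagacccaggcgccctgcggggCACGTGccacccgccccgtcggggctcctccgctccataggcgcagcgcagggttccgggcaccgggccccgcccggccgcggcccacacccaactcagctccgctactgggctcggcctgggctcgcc
Degs1: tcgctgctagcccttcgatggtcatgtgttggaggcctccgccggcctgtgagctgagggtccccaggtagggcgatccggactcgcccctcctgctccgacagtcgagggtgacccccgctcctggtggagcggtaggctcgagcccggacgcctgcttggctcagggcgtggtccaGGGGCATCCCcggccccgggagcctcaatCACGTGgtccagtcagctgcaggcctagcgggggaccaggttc
The E-box CACGTG, which reads the same on both strands, lay 22 bases before the start of Cers6, 129 bases before that of Cers2 and 43 bases before that of Degs1, and 6.02% of 32851 promoters held it. The other motifs searched, on both strands, were AP-1 (TGANTCA, in 6.75% of promoters), STAT (TTCNNNGAA, in 7.02%), the cyclic AMP element TGACGTCA (in 1.55%) and the NF-kB site (in 3.9%). Degs1 also held an NF-kB match, and the Sptlc2 window held none of the 5 motifs. Of the other promoters of the 10 genes in the table, those of Sptlc1, Cers4, Cers5 and Smpd1 held none either, a further Cers2 promoter held a STAT match, and of 5 Sphk1 promoters 2 overlapping windows held an AP-1 and a STAT match and 2 others CACGTG. A match of letters is a description of the window and not a binding site. The promoters were matched by symbol for 9 of the 10 genes, Asah1 being the gene with no entry.

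Serine palmitoyltransferase, the enzyme of the first step, is a complex in which Sptlc1 and Sptlc2 form the catalytic core. Sptlc2 (chr12:87305058-87388355, GRCm38) was at 71.8, 69.6 and 69.2 CPM in I/R replicates 1 to 3 and at 26.8, 24.8 and 19.5 CPM in I/R+Rk2 replicates 1 to 3. Its highest I/R+Rk2 liver lay far below its lowest I/R liver, and the means were 70.2 ± 1.40 and 23.7 ± 3.77 CPM (SD, n = 3), which is a log2 fold change of -1.56 (standard error, SE, 0.13). Its partner Sptlc1 (chr13:53332748-53377397) was at 25.1, 28.1 and 23.5 CPM in the I/R livers and at 26.1, 24.0 and 25.9 CPM in the I/R+Rk2 livers, so that its groups overlapped throughout. Per length, Sptlc2 was at 1.63 ± 0.172 times the FPKM of Sptlc1 in I/R and at 0.808 ± 0.146 times in I/R+Rk2, and the lowest I/R liver, at 1.497, lay above the highest I/R+Rk2 liver, at 0.971. The order of the core subunits by FPKM was thus Sptlc2 over Sptlc1 in every I/R liver and Sptlc1 over Sptlc2 in every I/R+Rk2 liver.

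The other genes of the complex that could be tested were on the higher side in I/R+Rk2, opposite to Sptlc2. Sptssa, a small subunit that activates the enzyme, was at 27.0, 28.6 and 28.7 CPM in the I/R livers and at 41.5, 53.9 and 50.4 CPM in the I/R+Rk2 livers, and rose with a log2 fold change of 0.79 (SE 0.11, adjusted p = 0.00218). The ORMDL proteins bind serine palmitoyltransferase and hold it back when ceramide is plentiful. Ormdl1 rose from 13.7, 15.3 and 15.4 CPM to 24.3, 26.1 and 27.1 CPM, a log2 fold change of 0.80 (SE 0.10, adjusted p = 0.00132). Ormdl2 rose by a log2 fold change of 0.51 (SE 0.10, adjusted p = 0.00683) and Ormdl3 by 0.34 (SE 0.11, adjusted p = 0.0368), the latter from 90.1 ± 5.35 to 114 ± 13.1 CPM (SD, n = 3). All livers of the groups were apart for these 4 genes, as they were for 57.4% of all genes tested. Of the exons of Ormdl2, 66.7% overlap those of Dnajc14 on the other strand, and since the strand setting is not given in the sources used here, its reads are uncertain. With library size alone as the scale, the Ormdl2 difference was 0.35 and no longer passed (adjusted p = 0.0531). Ormdl3 did not pass on that scale either, whereas Sptssa and Ormdl1 did. Kdsr, which carries out the next step, the reduction of the sphingoid base, did not pass (log2 fold change 0.21, SE 0.16).

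**Figure D2:**
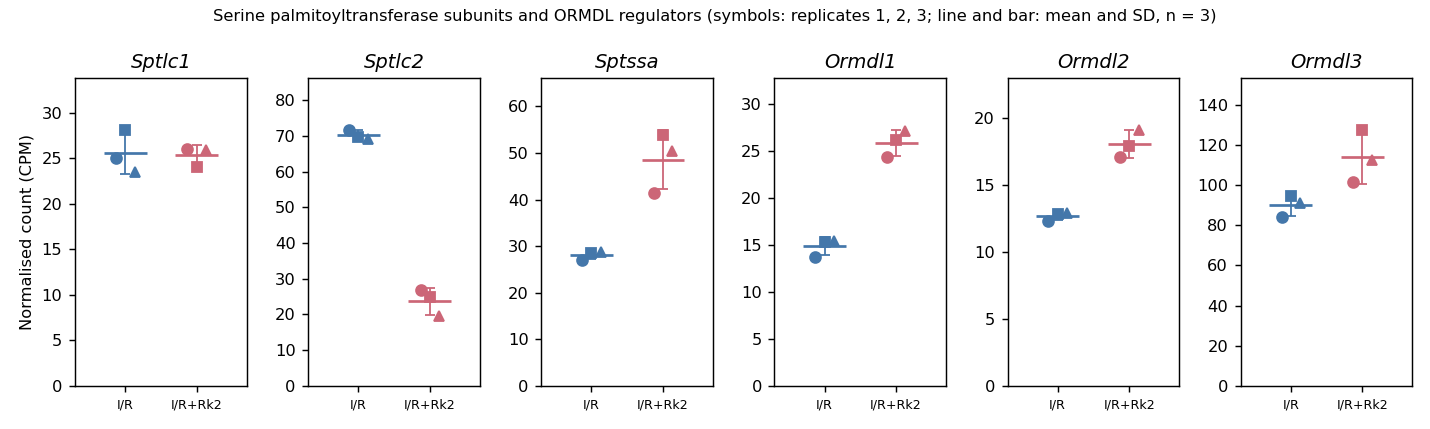
Normalised counts (CPM, each vertical axis from 0) of the serine palmitoyltransferase subunits Sptlc1, Sptlc2 and Sptssa and of the regulators Ormdl1, Ormdl2 and Ormdl3 in each liver, with symbols for replicates 1 to 3, a line at the mean and a bar for the SD (n = 3). Sptlc2 is at 19.5 to 26.8 CPM in the I/R+Rk2 livers against 69.2 to 71.8 CPM in the I/R livers, Sptlc1 overlaps, and the other 4 genes are higher in every I/R+Rk2 liver.

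Among the ceramide synthases, Cers6, which makes ceramides with long palmitic acid chains, gave the widest gap. Cers6 (chr2:68861441-69114282) had 1643, 2437 and 2357 counts in I/R and 224, 357 and 130 counts in I/R+Rk2, or 85.7, 95.1 and 94.0 CPM against 9.41, 10.6 and 7.98 CPM. The 3 livers of each group lay close together and the groups far apart, with means of 91.6 ± 5.16 and 9.32 ± 1.296 CPM (SD, n = 3) and a log2 fold change of -3.29 (SE 0.12). Over 17 alternatives of scaling, filter, tool or samples that value ran from -3.44 to -2.57.

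Cers5, which shares the preference of Cers6 for palmitic acid, was also lower in I/R+Rk2 but from a low level. Cers5 (chr15:99734881-99772885) was at 3.34, 2.89 and 2.31 CPM in the I/R livers and at 0.672, 0.947 and 1.66 CPM in the I/R+Rk2 livers, a log2 fold change of -1.41 (SE 0.35). Cers4 (chr8:4493026-4531680), which prefers longer saturated chains, was at 1.82, 1.48 and 1.71 CPM in the I/R livers and at 1.26, 0.711 and 0.553 CPM in the I/R+Rk2 livers, a log2 fold change of -0.97 (SE 0.35). Neither gene's groups overlapped, and the values rest on 16 to 74 counts per library for Cers5 and 9 to 43 for Cers4. The Cers4 exons overlap a pseudogene, Vmn2r-ps89, on the other strand over 7.22% of their length.

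Cers2 (chr3:95314791-95323599), the main ceramide synthase of the liver, which makes ceramides with very long chains, went the other way. It was at 238, 292 and 237 CPM in the I/R livers and at 346, 355 and 305 CPM in the I/R+Rk2 livers, with means of 255 ± 31.5 and 335 ± 26.2 CPM (SD, n = 3) and a log2 fold change of 0.39 (SE 0.12). The CPM of the groups did not overlap, but the FPKM did, from 128 to 159 in I/R and from 131 to 169.9 in I/R+Rk2, with a log2 ratio of mean FPKM of 0.083. Scaled by library size alone, the log2 fold change of Cers2 was 0.24, where the median over all genes moved to -0.17 from -0.0076. The remaining ceramide synthases, Cers1 and Cers3, had at most 6 counts in any I/R liver and 0 in every I/R+Rk2 liver and were not tested.

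Within the summed FPKM of the 6 ceramide synthase genes, Cers2 took 88.5%, 90.9% and 87.7% in I/R and 98.1%, 98.6% and 98.6% in I/R+Rk2. The share of Cers6 was 10.5%, 8.32% and 11.4% in I/R and 1.64%, 1.17% and 0.897% in I/R+Rk2. The sum itself overlapped between the groups, at 162 ± 14.5 FPKM in I/R and 156 ± 20.6 FPKM in I/R+Rk2 (SD, n = 3). The ratio of Cers2 to Cers6 in FPKM lay between 7.71 and 10.9 in I/R and between 59.7 and 109.9 in I/R+Rk2, and it was spread more widely in I/R+Rk2, where Cers6 was low. The composition of the ceramide synthase mRNA pool thus differed far more than its summed level.

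**Figure D3:**
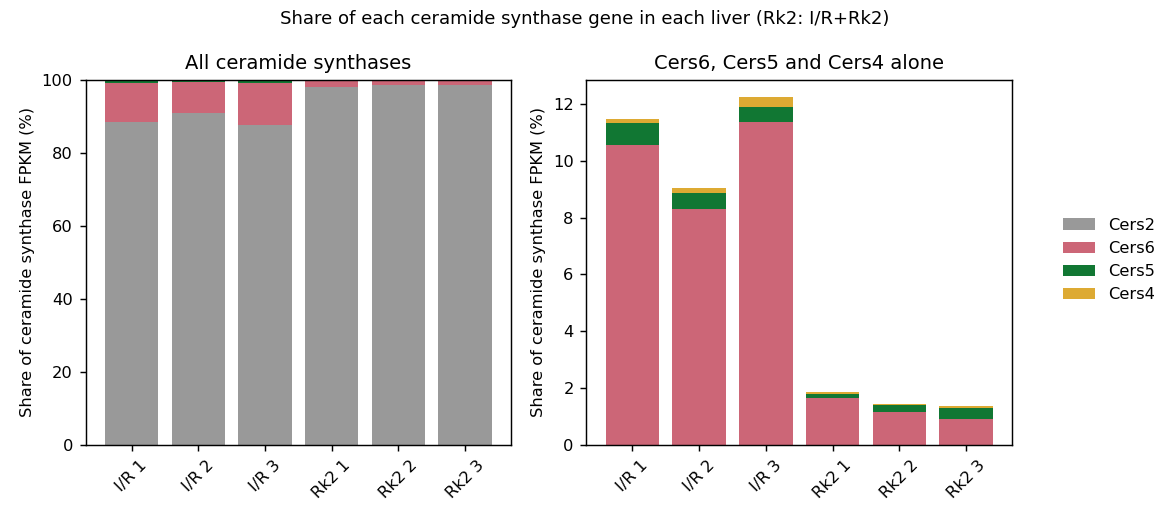
Share of each gene in the summed FPKM of the ceramide synthases (%, vertical axes from 0) in each of the 6 livers, all genes on the left and Cers6, Cers5 and Cers4 alone on the right, where Rk2 stands for I/R+Rk2. Cers6 holds 8.32% to 11.4% in the I/R livers and 0.897% to 1.64% in the I/R+Rk2 livers.

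The fatty acids that ceramide synthases attach are lengthened by the elongases, which were listed together with the partner enzymes Hsd17b12 and Tecr. Of the 8 genes of this list tested, 6 rose, Hsd17b12 and Tecr among them, and 1 fell. That is 87.5% passing, beside 43.9% of all genes tested, and the median log2 fold change was 0.48 against -0.0076 over all genes tested. Of the 6 that rose, only Elovl3, Elovl5 and Elovl6 also passed with library size alone as the scale, where 38.7% of all genes passed. Elovl5, an elongase of polyunsaturated fatty acids, rose by a log2 fold change of 1.51 (SE 0.35, adjusted p = 0.0125), Elovl3 by 1.46 (SE 0.24, adjusted p = 0.00353) and Elovl6, which lengthens palmitic acid, by 1.09 (SE 0.24, adjusted p = 0.00989). For Elovl5 the I/R livers were at 213, 386 and 202 CPM and the I/R+Rk2 livers at 468, 1040 and 770.4 CPM, so that the groups were apart but each was wide. Elovl7 fell by a log2 fold change of 2.35 (SE 0.28, adjusted p = 0.00116), to at most 0.681 CPM in the I/R+Rk2 livers. Elovl1, the elongase most closely tied to very long chain ceramides, did not pass (log2 fold change 0.066, SE 0.15).

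Degs1 (chr1:182275772-182282804), which introduces the double bond of ceramide, hardly differed. It was at 67.0, 64.5 and 64.9 CPM in the I/R livers and at 67.5, 68.6 and 65.8 CPM in the I/R+Rk2 livers, with overlapping groups and a log2 fold change of 0.040 (SE 0.073). Its sign turned with the scale, to -0.12 with library size alone and to a log2 ratio of mean FPKM of -0.15, and the log2 fold change of Sptlc1 was -0.015, -0.18 and -0.18 in the same order. None of these values for either gene was larger in size than the -0.18 of Sptlc1.

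Of the genes that use ceramide, those for sphingomyelin and for glycosphingolipid synthesis had lower members only among those that passed. Sgms1, a sphingomyelin synthase of the Golgi, was at 33.1, 46.2 and 37.0 CPM in the I/R livers and at 12.5, 11.7 and 8.78 CPM in the I/R+Rk2 livers, a fall of 3.52-fold (log2 fold change -1.81, SE 0.18, adjusted p = 0.000611). Cerk, the kinase that makes ceramide 1-phosphate, fell 2.63-fold (log2 fold change -1.40, SE 0.23, adjusted p = 0.00353). Sgms2, the sphingomyelin synthase of the cell surface, fell by a log2 fold change of 0.32 (SE 0.11, adjusted p = 0.0435), a call that was lost in 9 of 17 alternatives. Among them were DESeq2 (adjusted p = 0.059), relative log expression scaling (0.056), upper-quartile scaling (0.0741) and no filter (0.0548). The call was also lost without I/R replicate 2 or 3 and without I/R+Rk2 replicate 1 or 3. Cert1, the ceramide transfer protein, did not pass (log2 fold change -0.36, SE 0.35).

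The first step of glycosphingolipid synthesis is carried out by Ugcg, which adds glucose to ceramide. Ugcg was at 45.4, 37.1 and 43.3 CPM in the I/R livers and at 18.2, 14.4 and 15.9 CPM in the I/R+Rk2 livers, and fell 2.60-fold (log2 fold change -1.38, SE 0.13, adjusted p = 0.00051). The galactosyltransferases of the next step fell as well, B4galt5 by 2.02-fold (log2 fold change -1.01, SE 0.14, adjusted p = 0.00178) and B4galt6 by 2.56-fold (log2 fold change -1.36, SE 0.22, adjusted p = 0.00313). St3gal5, which makes the ganglioside GM3, fell by a log2 fold change of 0.82 (SE 0.24, adjusted p = 0.0294). Of the 6 genes of glycosphingolipid synthesis tested, 4 fell (66.7%) and none rose, with a median log2 fold change of -0.92. Of the 6 genes of sphingomyelin synthesis and ceramide transfer tested, 3 fell (50%) and none rose, with a median of -0.44. Among all genes tested, 23.7% passed lower and 20.3% higher.

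Smpd1 (chr7:105554360-105558389), the acid sphingomyelinase of the lysosome, releases ceramide from sphingomyelin. It was at 35.7, 38.4 and 32.7 CPM in the I/R livers and at 42.1, 41.5 and 46.2 CPM in the I/R+Rk2 livers, so that the groups were apart by a small margin, with a log2 fold change of 0.28 (SE 0.095). In FPKM it overlapped, from 13.5 to 16.6 in I/R and from 15.6 to 16.99 in I/R+Rk2, and with library size alone the log2 fold change was 0.12. Of 5 other sphingomyelinase genes tested, 1 passed (20%, beside 43.9% of all genes tested). Smpd2, a neutral sphingomyelinase, was that gene and rose by a log2 fold change of 0.46 (SE 0.13, adjusted p = 0.0229). That call was lost in 6 of 17 alternatives: with library size alone (0.30, adjusted p = 0.182), in the 3 FPKM fits (0.20 to 0.22, adjusted p from 0.282 to 0.32) and on leaving out I/R replicate 2 (0.44) or 3 (0.43). Of the exons of Smpd2, 20.3% overlap Mical1 on the other strand. Smpdl3b, at 0.626, 0.585 and 1.12 CPM against 0.126, 0.355 and 0 CPM, missed the threshold (adjusted p = 0.0544) and passed in 4 alternatives, with I/R+Rk2 replicate 2 left out (log2 fold change -3.32) as one of them. Smpd3 did not pass, and its groups overlapped (log2 fold change -0.38, SE 0.31).

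Asah1 (chr8:41340197-41374773), the acid ceramidase, splits ceramide in the lysosome. It was at 22.6, 32.6 and 29.4 CPM in the I/R livers and at 38.5, 38.1 and 33.7 CPM in the I/R+Rk2 livers, where the lowest I/R+Rk2 liver lay just above the highest I/R liver, and the log2 fold change was 0.38 (SE 0.14). In FPKM its groups overlapped, from 11.3 to 12.8 and from 12.7 to 14.9. Of the 3 ceramidases outside the lysosome tested, 2 fell and 1 did not pass. Acer2, the alkaline ceramidase of the Golgi, was at 30.6, 29.0 and 26.0 CPM in the I/R livers and at 7.99, 10.8 and 11.5 CPM in the I/R+Rk2 livers, and fell 2.83-fold (log2 fold change -1.50, SE 0.16, adjusted p = 0.000753). Acer3 fell by a log2 fold change of 0.45 (SE 0.14, adjusted p = 0.0351), a call lost in 10 of 17 alternatives, among them the removal of any 1 liver except I/R replicate 2. Asah2, the neutral ceramidase, did not pass (log2 fold change 0.13, SE 0.17).

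Sphk1 (chr11:116530925-116536674), a kinase that makes sphingosine 1-phosphate, was at 6.83, 6.36 and 7.22 CPM in the I/R livers and at 4.75, 3.64 and 3.87 CPM in the I/R+Rk2 livers. Its groups did not overlap, with means of 6.80 ± 0.428 and 4.09 ± 0.585 CPM (SD, n = 3) and a log2 fold change of -0.74 (SE 0.16). The other sphingosine kinase gene, Sphk2, was at 27.0, 31.3 and 29.3 CPM in the I/R livers and at 24.9, 40.1 and 45.1 CPM in the I/R+Rk2 livers and did not pass (log2 fold change 0.33, SE 0.21), and its exons overlap Dbp and Rpl18 on the other strand. In FPKM, Sphk2 stood above Sphk1 in all 6 livers.

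Of the 7 other genes of sphingosine 1-phosphate turnover tested, 2 rose and 1 fell. That is 42.9% passing, beside 43.9% of all genes tested. The genes that passed all code for enzymes that remove sphingosine 1-phosphate. Sgpl1, the lyase that breaks it down for good, rose from 68.1 ± 2.51 to 89.8 ± 2.71 CPM (SD, n = 3; log2 fold change 0.40, SE 0.076, adjusted p = 0.0059). Sgpp1, a phosphatase that returns it to sphingosine, rose by a log2 fold change of 0.47 (SE 0.10, adjusted p = 0.0097), and both calls were lost in the FPKM fits and with scaling by library size alone. Plpp2, a lipid phosphatase of wider substrate range, fell by a log2 fold change of 0.71 (SE 0.13, adjusted p = 0.00463). Spns2, which exports sphingosine 1-phosphate from endothelial cells, rose from 7.72, 12.8 and 10.3 CPM to 26.1, 28.7 and 22.6 CPM (log2 fold change 1.32, SE 0.19, adjusted p = 0.00232). The receptors S1pr2 (log2 fold change -0.58, SE 0.19, adjusted p = 0.0409) and S1pr3 (log2 fold change -0.73, SE 0.22, adjusted p = 0.0346) fell, the S1pr2 call being lost on the removal of any 1 liver except I/R replicate 2 and the S1pr3 call on that of any 1 liver except I/R+Rk2 replicate 1. The other receptors tested, S1pr1 (log2 fold change 0.39, SE 0.18) and S1pr5 (0.69, SE 0.35), did not pass. Of the 6 transporter and receptor genes tested, 1 rose and 2 fell, which is 50% passing.

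The lysosomal breakdown of glycosphingolipids had members in both directions, 3 of 13 tested genes higher and 2 lower. The share that passed was 38.5%, below the 43.9% of all genes tested (20.3% higher and 23.7% lower). Gm2a, the activator protein for ganglioside breakdown, rose from 96.2 ± 10.0 to 165 ± 12.7 CPM (SD, n = 3; log2 fold change 0.78, SE 0.11, adjusted p = 0.00186). Gla, the alpha-galactosidase, fell 2.44-fold (log2 fold change -1.29, SE 0.20, adjusted p = 0.0028). Gba2, a glucosylceramidase that sits outside the lysosome although it was listed here, rose by a log2 fold change of 0.75 (SE 0.19, adjusted p = 0.0188), a call lost in 7 of 17 alternatives: with library size alone (0.60, adjusted p = 0.0646), in the 3 FPKM fits (adjusted p from 0.0834 to 0.101) and on leaving out I/R replicate 1, I/R replicate 3 or I/R+Rk2 replicate 2. Psap, the precursor of the saposins, did not pass (log2 fold change -0.13, SE 0.079).

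Over the whole list of 75 other sphingolipid genes, 59 were tested and 32 passed, 17 higher and 15 lower, which is 54.2% beside 43.9% of all genes tested. With a fold change above 2 as well, 4 were higher and 8 lower, beside 3.17% and 11.4% of all genes. The median log2 fold change of the list was 0.066. The split of the calls moved with the scale: with library size alone 7 rose and 16 fell, and in the limma fit on log2(FPKM + 1) over genes averaging at least 1 FPKM, 8 rose and 13 fell. Without I/R replicate 3 the number passing was 21, of which 10 rose, and without I/R+Rk2 replicate 2 the number that rose was 11. Passing in all 18 fits were 13 genes, Sptssa, Ormdl1, Elovl3, Elovl5, Spns2 and Gm2a on the higher side and Sgms1, Cerk, Acer2, Plpp2, Ugcg, B4galt5 and Gla on the lower side. Elovl7 and B4galt6 passed in the main fit and in all 15 alternatives that tested them, and the fits with a minimum mean FPKM did not test them.

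**Figure D4:**
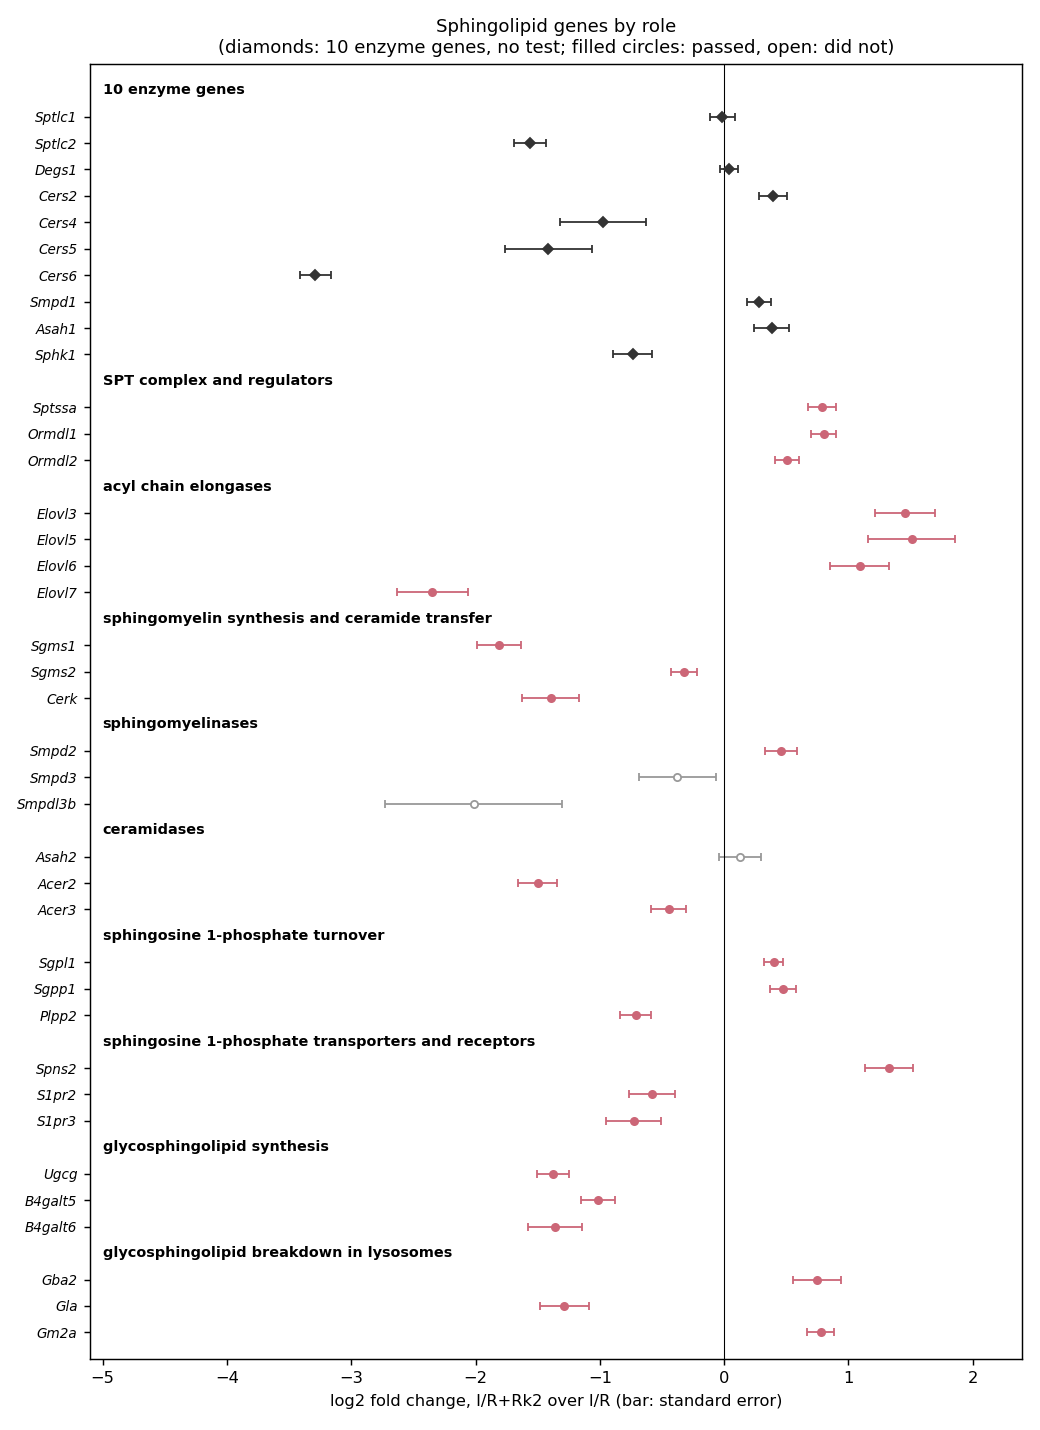
Log2 fold change of I/R+Rk2 over I/R (horizontal axis) with its standard error (bars) for the 10 enzyme genes (diamonds, no test) and for the named genes of each other sphingolipid role (circles, filled where the adjusted p was below 0.05). Cers6 lies farthest to the left at -3.29, the subunit and regulator genes Sptssa, Ormdl1 and Ormdl2 lie to the right, and Sgms1, Cerk, Ugcg, B4galt5 and B4galt6 all lie left of -1.

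Set in order of their level per length in I/R, Cers2 came first at 145 ± 15.3 FPKM (SD, n = 3), 4.44-fold over Degs1 at 32.6 ± 2.52 FPKM. Cers6 (16.2 ± 1.54 FPKM), Sptlc2 (15.9 ± 0.648 FPKM) and Smpd1 (15.3 ± 1.61 FPKM) followed, and neighbours among these 3 overlapped from liver to liver. Below them came Asah1 at 12.0, Sptlc1 at 9.83, Sphk1 at 3.53, Cers5 at 1.02 and Cers4 at 0.337 FPKM, each apart from its neighbours. In I/R+Rk2 the order was Cers2, Degs1, Smpd1, Asah1, Sptlc1, Sptlc2, Cers6, Sphk1, Cers5 and Cers4, in which Sptlc1 overlapped with Sptlc2 and Cers6 with Sphk1. Cers6 had gone from rank 3 to rank 7, at 1.95 ± 0.735 FPKM, and Sptlc2 from rank 4 to rank 6, at 7.01 ± 1.35 FPKM.

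**Figure D5:**
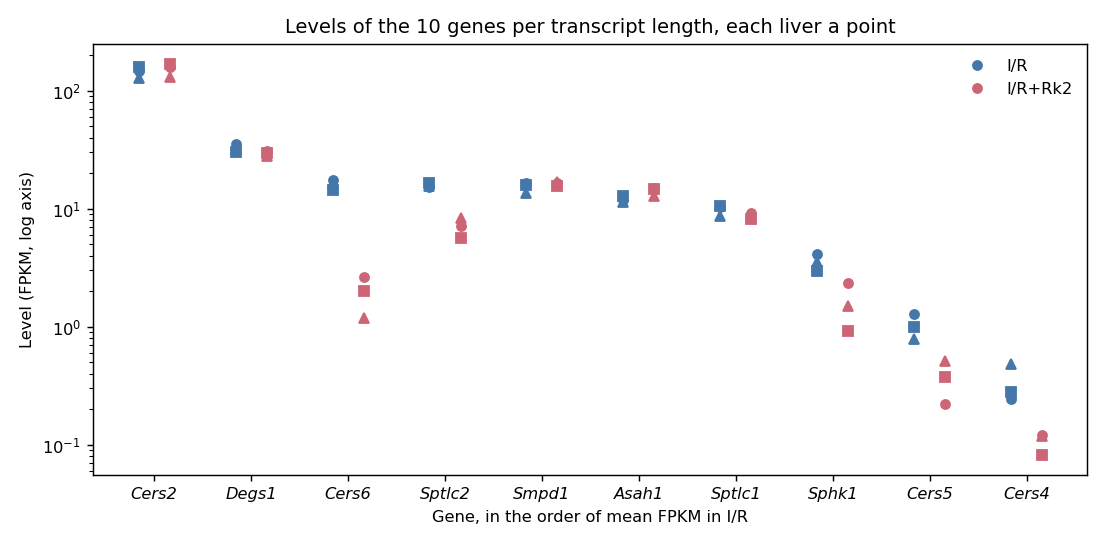
Level per transcript length (FPKM, log axis) of the 10 genes in each liver, I/R in blue and I/R+Rk2 in red, in the order of the mean in I/R, with circles, squares and triangles for replicates 1 to 3. Cers2 is highest at 128 to 169.9 FPKM in all 6 livers, and Sptlc2, Cers6, Sphk1, Cers5 and Cers4 are the 5 genes whose groups do not overlap.

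The FPKM separated fewer of the 10 genes than the normalised counts did. The groups did not overlap for 5 genes in FPKM, all lower in I/R+Rk2, beside 51.3% of all genes tested, of which 34.7% were lower and 16.6% higher. In CPM of the unscaled libraries the groups likewise overlapped for Cers2, Smpd1 and Asah1, the 3 genes that were apart only after scaling. The FPKM also depend on the length that StringTie assigned to a gene, which is taken here as the CPM of the unscaled library divided by the FPKM. For Sptlc1 that length was steady at 2.71 to 2.79 kb in the 6 livers, whereas for Sptlc2 it was 5.31, 4.27 and 4.46 kb in I/R and 3.69, 4.19 and 2.14 kb in I/R+Rk2, and the log2 ratio of mean FPKM was -1.18 for Sptlc2. For Cers2 it was 1.85 to 1.88 kb in I/R and 1.98 to 2.14 kb in I/R+Rk2, again without overlap. Groups without overlap were found for 2 of the 8 genes with at least 20 counts in every liver, beside 12.0% of 10407 genes. For Sphk1 the length was 3.77 kb in I/R+Rk2 replicate 2 and at most 2.35 kb in the other livers, and the lowest Sphk1 FPKM, 0.917, came from that liver. Which transcripts were present was not tested.

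The genes whose pattern over the 6 livers was most like that of Cers2, by the root mean square difference of centred log2(CPM + 1) values among 11389 genes, were Abcb8 (0.032), Cox5a (0.039) and F7 (0.041), against a median of 0.32 over all genes compared. Abcb8 is a mitochondrial transporter, Cox5a a subunit of cytochrome c oxidase and F7 a coagulation factor made by hepatocytes. For Cers6 the nearest were Ccr2 (0.11), the chemokine receptor of inflammatory monocytes, Alpk1 (0.12), a kinase that senses bacterial sugars, and Zbtb9 (0.16), against a median of 1.60. Their log2 fold changes were -4.41, -4.39 and -10.3, larger in size than the -3.29 of Cers6. The 1 added to the CPM shrinks differences of genes at low levels, so nearness here is not an equal fold change. Ccr2 was at 14.2 ± 1.02 CPM in the I/R livers and 0.658 ± 0.127 CPM in the I/R+Rk2 livers (SD, n = 3). Zbtb9 was at 6.70 ± 0.379 CPM in the I/R livers and at 0 counts in all I/R+Rk2 livers, and as it shares exons with Ggnbp1 its reads are uncertain.

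Markers of several cell types moved between the groups. The monocyte markers were lower for 10 of 10 tested genes, with a summed level of 1678 to 1992 CPM in the I/R livers and 1132 to 1190 CPM in the I/R+Rk2 livers, and without Fn1, which hepatocytes also make, of 247 to 270.4 and 15.5 to 26.1 CPM, a sum chosen after its values were seen. The neutrophil markers were lower for 10 of 11 tested, with a sum of 578 to 704 CPM in the I/R livers and 108 to 253 CPM in the I/R+Rk2 livers. These sums moved in the same direction as Cers6, Sptlc2, Cers5, Cers4 and Sphk1, as did the stellate cell and cholangiocyte sums given below. Hepatocyte markers were higher for 5 and lower for 2 of 9 tested. Their sum was 73538 to 84018 CPM in the I/R livers and 104000 to 125293 CPM in the I/R+Rk2 livers. That was the direction of Cers2, Smpd1 and Asah1, but Alb alone made up most of the sum in every liver. The lower markers were Hnf4a (log2 fold change -0.52) and Fgb (-0.62), and Cyp2e1 hardly differed (-0.010). Erythroid markers were higher for 5 of 5 tested, with a sum of 1301 to 2520 CPM and 3243 to 4195 CPM. Of the other lists, 1 of 11 Kupffer cell markers was lower (146 to 202 CPM and 126 to 159 CPM), 4 of 10 stellate cell markers (219 to 271 CPM and 163 to 182 CPM) and 3 of 6 cholangiocyte markers (165 to 231 CPM and 84.0 to 117 CPM), while 5 of 10 endothelial markers were higher and 3 lower (227 to 243 CPM and 207 to 262 CPM). For lymphocytes 1 marker was tested and did not pass, with a sum of at most 3.87 CPM in any liver. The part of these cell types in the differences of the 10 genes was not tested.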

How the data were processed

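The authors aligned reads with HISAT2 2.2.1 and quantified genes with StringTie 1.3.3 after FastQC 0.11.5, on mm10, per the labels and the submitters' processing notes. The annotation and strand setting are not given in the sources used here. They deposited whole-number counts per gene (15454 rows) and FPKM values (21948 rows). The 10 genes and all lists were chosen with earlier results of these data known.

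The counts were taken into edgeR 4.0.16 under R 4.3.3: filterByExpr with default settings (12411 genes), TMM scaling, and the quasi-likelihood F test of I/R+Rk2 against I/R without covariates on all 6 libraries, with Benjamini-Hochberg adjustment over all genes tested. Standard errors are the absolute log2 fold change divided by the root of F. CPM use the TMM-scaled library size. The test was checked on simulated counts. Named were all 10 genes, and of 75 other sphingolipid genes those passing with a fold change above 2 and the 3 with the smallest p of each role. Ormdl3, Kdsr, Elovl1, Cert1, St3gal5, Psap, Sphk2, S1pr1, S1pr5, Cers1 and Cers3 were added after their values were seen. Patterns were compared among tested genes with a mean of at least 1 CPM. Gene positions are from GENCODE M21 (GRCm38).

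Alternatives were other scalings, other filters, DESeq2 1.42.0, limma 3.58.1 on log2(FPKM + 1) and log2(FPKM + 0.1), a replicate block, removal of a transcript length trend, and leaving out each liver. Pairs of libraries within a group differed by 31.4 to 74.8 chi-square units per degree of freedom, far above sampling noise, so each was counted as 1 replicate. At this depth 3 counts stand for 0.0888 to 0.184 CPM, a limit that covers counting error only.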

Additional observations from a re-analysis of the deposited data

How the results depend on the processing

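With library size alone, 1320 of all genes rose in place of 2516, and 7 of the other sphingolipid genes in place of 17. With limma on log2(FPKM + 1) and a mean FPKM of at least 1, 21 other sphingolipid genes passed in place of 32 (8 higher), 1172 of all genes rose, 901 of all genes passed with a fold change above 2 in place of 1813, and 3 of the 8 enzyme genes tested passed, beside 38.8% of all genes. With a pseudocount of 0.1 the first, second and last of those counts were 21 (8 higher), 1148 and 3 (38.1% of all genes passed), and without a filter on FPKM 19 other sphingolipid genes passed (7 higher), 1124 of all genes rose and 921 passed with a fold change above 2.

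Leaving out 1 liver at a time, 3 to 7 of the 10 enzyme genes passed, the lowest without I/R replicate 1 or I/R+Rk2 replicate 2, and 31.1% to 43.1% of all genes passed in these fits. Of the other sphingolipid genes, 21 to 29 passed, the lowest without I/R replicate 3, and 10 to 18 rose, 10 without I/R replicate 3 (11 when I/R+Rk2 replicate 2 was left out). Of all genes, 1640 to 2401 rose, 1640 without I/R+Rk2 replicate 2 (1645 when I/R replicate 3 was left out). The log2 fold change of Asah2, 0.13 and not past the threshold, turned to -0.029 with library size alone and to -0.025, -0.040 and -0.025 in the FPKM fits above in that order, and it ran from -0.015 (I/R+Rk2 replicate 2 left out) to 0.24 (I/R+Rk2 replicate 1 left out). The cause of these shifts was not tested beyond what the settings themselves change.

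Same-numbered livers of the groups did not deviate together (correlations of -0.031, 0.050 and -0.026), so the numbers do not pair them. With a replicate block, 27 of the other sphingolipid genes passed, 16 higher and 11 lower, as did 5 of the 10 enzyme genes and 4713 of all genes (38%) in place of 5454.

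With 3 livers per group, genes at few counts, such as Cers4 and Cers5, are the least secure, and the Cers2, Smpd1 and Asah1 differences are small enough to depend on how libraries are scaled.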
